A study of Bos taurus with 16 samples.

Results

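Interleukin 1 and the chemokines that draw neutrophils were followed through the bovine endometrium and the embryo as 5 genes: the cytokines IL1A and IL1B, the chemokines CXCL8 and CXCL5, and the chemokine receptor CXCR1. The members were every probe set whose only symbol in the platform annotation was one of the 5, out of 9155 genes that the annotation names in this way. This gave 7 probe sets of the 24016 on the array that are not controls. IL1A (NCBI gene 281250) and IL1B (281251) each had a pair, called S1 and S2 here after their suffixes, while CXCL8 (280828), CXCL5 (281735) and CXCR1 (281863) had 1 each. In endometrium 6 of the 7 passed the filter on low values (log2 signal above 4 on at least 2 of the tissue's arrays), and in blastocysts 2 of the 7.

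The study took endometrial cells from cows with a cytobrush, a small brush turned against the uterine lining, and flushed embryos from the uterus. Subclinical endometritis (SE) is an inflammation of the lining without outward signs, and cows were classed as SE or healthy (HE) by the polymorphonuclear cells seen on the brush. The groups were SE and HE endometrium at embryo flushing (day 7; 3 and 2 pools analysed here), SE and HE endometrium at insemination (day 0; 3 pools each), and blastocysts flushed from SE and HE cows (3 and 2 pools of 10 embryos). All cows had been superovulated, the brush of day 0 was taken 2 h before insemination, and each array carried amplified RNA from a pool. Since status was set by neutrophils on the brush, a higher neutrophil signal in SE is not independent of the grouping. The p-values measure the spread between pools, not between cows, and with so few arrays each value is known only within the error given.

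IL1A and IL1B are the 2 classical interleukin 1 ligands and signal through the same receptor, IL1R1, with its partner chain IL1RAP. IL1B is made as an inactive precursor and cut by caspase 1 in the inflammasome, whereas the IL1A precursor is itself active and is released from damaged epithelium. The antagonist IL1RN occupies IL1R1 without signalling. Interleukin 1 switches on NF-kB, and with it CXCL8 and CXCL5, chemokines with the ELR motif that bind to receptors on neutrophils. CXCR1 is one such receptor and sits on the neutrophil surface. In the uterus these genes are known for the influx of neutrophils after calving and after insemination, and interleukin 1 is also made by the early embryo.

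The unit is the deposited log2 GCRMA signal, whose scale is particular to each probe set, so levels are compared between pools and not between genes. The arrays of a tissue were alike in range, the filter value being exceeded by 12303 to 12471 probe sets per endometrium array and by 10823 to 10877 per blastocyst array. The endometrium arrays carried the epithelial markers EPCAM (13.19 to 14.55), KRT18 (9.16 to 12.06) and CDH1 (9.34 to 11.33), while KRT8 stayed below the filter. The blastocyst arrays carried POU5F1 (9.69 to 10.97) and IFNT2 (8.79 to 10.76). Day 0 SE pool 2 stood apart, with a mean correlation of 0.961 with the other day 0 arrays against 0.975 to 0.979 for those. Its GAPDH control also differed more between the 3' and the 5' probe sets, by 0.578 against 0.026 to 0.141 on the other day 0 arrays. On the day 7 arrays this difference ran from 0.215 to 0.574, highest in SE pool 1. For the actin control, day 0 SE pool 2 (-0.433) lay within the other day 0 arrays (-0.442 to -0.343). For the ThrX control it was the highest (1.066 against 0.400 to 0.692). Day 0 results are therefore given with and without that pool.

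IL1B, by its brighter probe set S2, was high in a few pools and below the filter in the others. On day 7 it read 3.11, 5.02 and 3.81 in SE pools 1 to 3 and 3.45 and 2.28 in HE pools 1 and 2. At insemination SE pools gave 6.75, 2.96 and 8.55 and HE pools gave 4.83, 2.23 and 2.29. Day 0 SE pools 1 and 3 held the highest levels, but SE pool 2 lay below HE pool 1, so the groups overlapped on both days. The other probe set, S1, followed the same order at the top: 5.73, 2.73 and 7.97 in day 0 SE pools against 3.49, 2.33 and 2.07 in day 0 HE pools. On day 7 it read 2.74, 3.69 and 3.14 in SE and 2.51 and 2.52 in HE, all below the filter, so it was above the filter in day 0 SE pools 1 and 3 alone. The 2 probe sets correlated at r = 0.97 over the 11 endometrium arrays.

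IL1A was seen above the filter in fewer pools still. Its probe set S2 read 5.83, 3.16 and 6.03 in day 0 SE pools and 4.29, 3.10 and 2.97 in day 0 HE pools. On day 7 it read 3.19, 3.30 and 3.28 in SE and 3.02 and 2.97 in HE, below the filter throughout. Only day 0 SE pools 1 and 3 and HE pool 1 therefore carried a signal above the filter, the same 3 pools in which IL1B stood highest on day 0. The other probe set, S1, never reached the filter and was not tested, yet its highest readings, 3.51 and 2.95, came from day 0 SE pools 3 and 1, while its other 9 readings ran from 1.83 to 1.94.

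CXCL8, the main neutrophil attractant of cattle and humans (also called interleukin 8), was above the filter in all 11 endometrium pools. It read 8.52, 10.71 and 8.06 in day 7 SE pools and 8.67 and 4.94 in day 7 HE pools. On day 0 it read 10.55, 8.74 and 11.64 in SE and 9.88, 8.19 and 7.19 in HE. The highest value came from day 0 SE pool 3 and the lowest from day 7 HE pool 2, and the SE and HE pools overlapped on both days.

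CXCL5, a related chemokine that the RefSeq gene table also lists as CXCL6 or GCP2, took another course. It read 7.33, 7.06 and 7.53 in day 7 SE pools and 7.91 and 7.54 in day 7 HE pools. On day 0 it read 9.47, 10.01 and 11.85 in SE and 9.20, 8.15 and 9.70 in HE. Every day 7 pool lay below every day 0 pool, and on day 7 the SE pools lay just below the HE pools. The RefSeq table (assembly ARS-UCD2.0) places CXCL8 and CXCL5 in 1 run of 10 annotated genes that also holds PPBP, PF4, CXCL2, CXCL3 and GRO1, with 1 unnamed gene between CXCL8 and CXCL5.

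CXCR1, carried by the neutrophils that these chemokines attract, was low in most pools and high in a few. It read 3.62, 5.13 and 3.89 in day 7 SE pools and 3.57 and 2.62 in day 7 HE pools. On day 0 it read 8.16, 3.09 and 7.62 in SE and 6.48, 2.49 and 2.90 in HE. It was above the filter in 4 pools: day 0 SE pools 1 and 3, day 0 HE pool 1 and day 7 SE pool 2. In a pool of brushed cells, fewer neutrophils and less CXCR1 RNA per neutrophil cannot be told apart, and the same holds for every gene here.

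**Figure D1:**
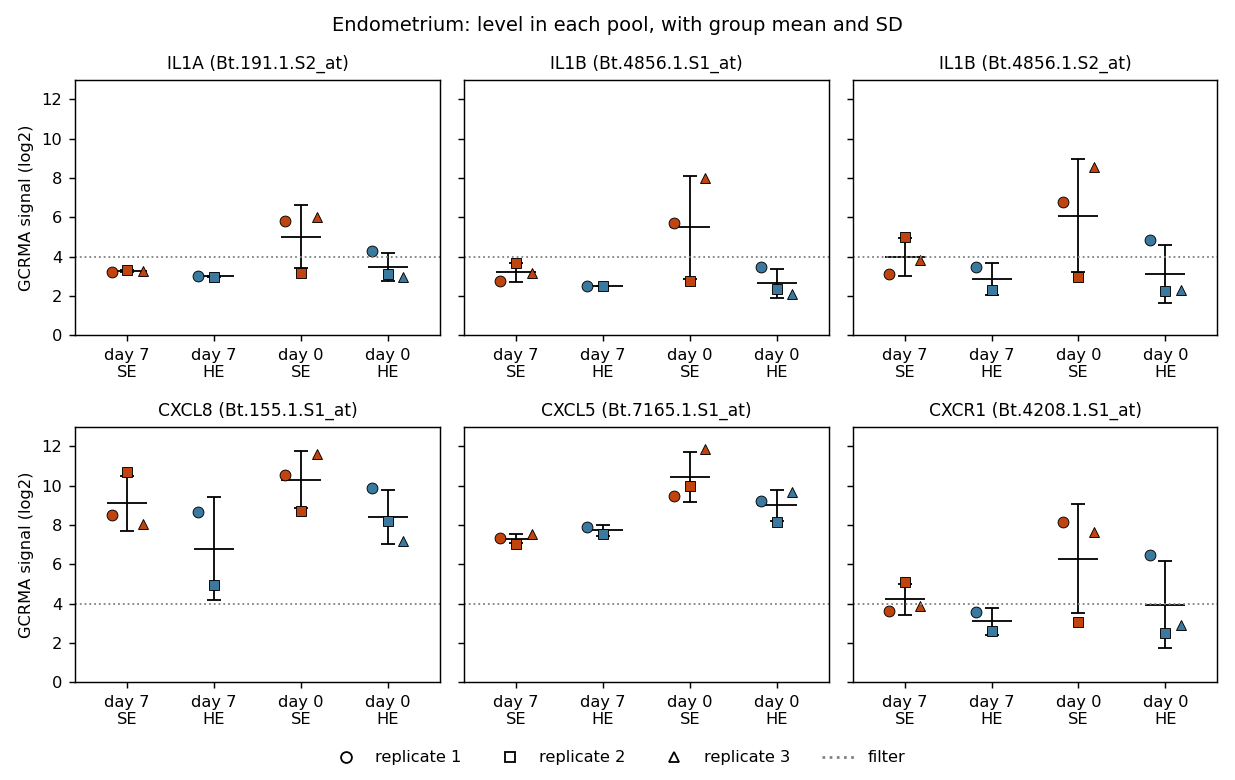
Log2 GCRMA signal (vertical axis) of the 6 probe sets tested in endometrium, with 1 point per pool in each group; horizontal bars are group means, error bars SD, and the dotted line the filter at 4. IL1A, IL1B and CXCR1 stand above the line in a few pools, chiefly day 0 SE pools 1 and 3, whereas CXCL5 lies lower in each day 7 pool than in any day 0 pool.

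Comparing SE with HE at insemination asked whether the uterus that receives the semen already differed in these genes. All 6 probe sets had higher means in SE on day 0, by 1.43 to 2.97 on the log2 scale, but none passed the test and the groups overlapped for each of them, as they did for all but 12.8% of the probe sets tested. IL1B averaged 6.09 ± 2.86 in SE and 3.11 ± 1.48 in HE (SD, n = 3 each), a difference of 2.97 with a standard error of 1.25 and a 95% interval of 0.17 to 5.77 (limma, adjusted p = 0.638). Its other probe set differed by 2.85 (0.57 to 5.13, adjusted p = 0.608). IL1A averaged 5.01 ± 1.60 in SE and 3.46 ± 0.73 in HE, a difference of 1.55 (0.10 to 3.01, adjusted p = 0.638). Among the chemokines, CXCL8 stood at 10.31 ± 1.47 in SE and 8.42 ± 1.36 in HE, a difference of 1.89 (-0.64 to 4.42, adjusted p = 0.737). CXCL5 stood at 10.45 ± 1.25 in SE and 9.02 ± 0.79 in HE, a difference of 1.43 (0.17 to 2.68, adjusted p = 0.618). The receptor CXCR1 differed by 2.33 (-0.67 to 5.34, adjusted p = 0.724) and had the widest interval of the 6.

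In this comparison limma called 0 of the 6 probe sets, against 0.0224% of all 13421 tested. At an unadjusted p under 0.05, 4 of the 6 passed (both of IL1B, IL1A and CXCL5), against 7.6% of all probe sets. The median difference of the 6 was 2.11 and all 6 exceeded 1, while that of all probe sets was -0.06 with 1.82% above 1. Since IL1A, IL1B and CXCR1 passed the filter through their high pools, this count and median only describe the 6. Without SE pool 2 the differences were 2.48 for IL1A (adjusted p = 0.097), 4.54 and 4.22 for IL1B (adjusted p = 0.215 and 0.126), 3.93 for CXCR1 (adjusted p = 0.426) and 2.68 for CXCL8 (adjusted p = 0.757). CXCL5 moved least, to 1.65 (adjusted p = 0.696), since SE pool 2 was not low for it. Without SE pool 3 the differences were 1.04 for IL1A, 1.74 and 1.60 for IL1B, 1.23 for CXCL8 and 0.72 for CXCL5, and that of CXCR1 was lowest, at 1.40, without SE pool 1.

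The spread inside the groups followed the pools. On day 0, SE pool 3 was highest for 4 of the 5 genes and SE pool 1 for CXCR1. For IL1A, IL1B, CXCL8 and CXCR1 the 3 highest pools were SE pools 1 and 3 and HE pool 1, so a pool classed as healthy ranked above SE pool 2 for these 4 genes. CXCL5 had another order, from SE pool 3 through SE pool 2, HE pool 3, SE pool 1 and HE pool 1 down to HE pool 2. Over the 11 endometrium arrays IL1A correlated at r = 0.93 with IL1B, 0.94 with CXCR1 and 0.71 with CXCL8, and IL1B at 0.94 with CXCR1 and 0.84 with CXCL8 (Spearman 0.89, 0.92, 0.84, 0.97 and 0.83). Without the 2 arrays farthest from the median, r was 0.70 for IL1A with IL1B and 0.54 for IL1A with CXCL8, and 0.80 to 0.93 for the other 3 pairs. CXCL5 correlated with the other 4 genes at 0.44 to 0.68 by Pearson and at 0.05 to 0.25 by Spearman, over both IL1B probe sets. These points share arrays, groups and cell make-up, so the correlations describe the pools and carry no test.

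**Figure D2:**
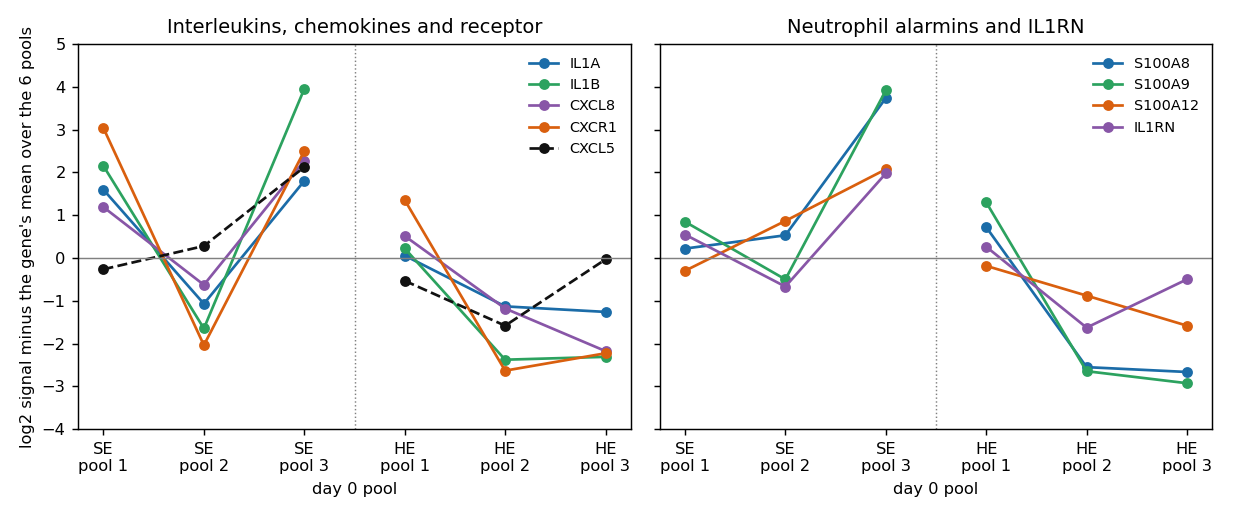
Log2 signal of each gene in the 6 day 0 pools, minus that gene's mean over the 6 (vertical axis); pools run along the horizontal axis, SE left of HE, and lines only join the points of 1 gene. IL1A, IL1B, CXCL8 and CXCR1 lie below their means in SE pool 2 and above them in SE pools 1 and 3 and HE pool 1, while CXCL5 (dashed) lies above its mean in SE pool 2. The right panel shows S100A8, S100A9, S100A12 and IL1RN in the same pools.

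Markers of neutrophils were followed in the same pools. S100A8 and S100A9, which together form the alarmin calprotectin, and S100A12, a related alarmin, are stored in neutrophil cytoplasm. S100A8 read 9.07, 9.39 and 12.59 in day 0 SE pools and 9.58, 6.31 and 6.19 in day 0 HE pools, and S100A9 read 7.54, 6.19 and 10.61 in SE pools and 7.99, 4.05 and 3.77 in HE pools. As with IL1B, SE pool 3 was highest and HE pool 1 stood above the other HE pools. S100A12 read 11.57, 12.73 and 13.94 in SE pools and 11.68, 10.99 and 10.29 in HE pools, and it was higher in SE pool 2 than in SE pool 1. The differences were 2.99 for S100A8 (adjusted p = 0.61), 2.84 for S100A9 (adjusted p = 0.658) and 1.76 for S100A12 (adjusted p = 0.638), none of them past the test.

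Of 30 neutrophil markers listed, 11 passed the filter, and 8 of these had higher means in day 0 SE, against 38.9% of all probe sets. Their summed linear signal ran from 19759 to 38497 in day 0 SE pools and from 13391 to 20833 in day 0 HE pools, with overlap. Bright genes weigh most in such a sum, among them LTF (lactoferrin) at 13.19 to 14.62 in the day 0 pools. The sum is therefore no measure of neutrophil number. The summed signal of macrophage and dendritic cell markers (12 of 21 listed) ran from 1153 to 1805 in SE and from 875 to 1079 in HE. That of lymphocyte markers (10 of 20) ran from 2839 to 4569 in SE and from 1210 to 1649 in HE, and that of stromal fibroblast markers (11 of 13) from 10260 to 14569 in SE and from 3858 to 9900 in HE. The sum of ciliated cell markers (4 of 11) ran from 957 to 3185 in SE and from 355 to 905 in HE. These 4 sums did not overlap between the groups, whereas the sum of epithelial markers did (59831 to 76201 in SE, 56865 to 65218 in HE). Taken singly, 5 of 12 macrophage and dendritic cell markers and 1 of 10 lymphocyte markers were higher in each SE pool than in each HE pool. The same was true of 0 of 11 stromal and 3 of 4 ciliated cell markers, against 3.58% of all probe sets. In the lymphocyte sum JCHAIN weighed most, at 10.94, 11.26 and 11.91 in SE and 8.71, 9.02 and 9.84 in HE. No probe set carries the symbols of the neutrophil receptors CXCR2 and CSF3R. The part of cell make-up in the differences of the 5 genes was not tested.

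At embryo flushing the comparison of SE with HE asked what surrounded the day 7 embryo. CXCL8 had the largest difference of the 6 probe sets, 9.10 ± 1.42 in SE (SD, n = 3) and 6.80 ± 2.64 in HE (SD, n = 2), and did not pass the test (2.30, 95% interval -0.53 to 5.13, adjusted p = 1). Leaving out HE pool 2, the lowest, brought this difference to 0.43, and leaving out HE pool 1 brought it to 4.17. IL1B differed by 1.11 (-2.01 to 4.24) on its brighter probe set and by 0.67 (-1.88 to 3.22) on the other. IL1A differed by 0.26 (-1.37 to 1.89) and CXCR1 by 1.12 (-2.24 to 4.48), while CXCL5 had the lower mean in SE, 7.31 ± 0.24 against 7.73 ± 0.26 in HE, a difference of -0.42 (-1.82 to 0.99). The adjusted p was 1 for all 6. The fit drew the spread of each probe set from all 11 endometrium arrays, so these intervals do not measure the day 7 spread alone. For IL1A the SD was 0.06 in SE and 0.04 in HE on day 7, against 1.60 in day 0 SE.

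On day 7 limma called 0 of the 6 probe sets, and 0 at an unadjusted p under 0.05, against 0% and 3.55% of all 13421. The SE and HE pools did not overlap for 4 of the 6: IL1A, CXCR1 and 1 probe set of IL1B were higher in each SE pool, and CXCL5 was lower in each. Of all probe sets 16.3% did not overlap, and of these 4 only CXCL5, in every pool, and CXCR1, in SE pool 2, had values above the filter. SE pool 2 was the highest of the day 7 pools for IL1A, IL1B, CXCL8 and CXCR1, and HE pool 2 the lowest. CXCL5 was lowest in SE pool 2 and highest in HE pool 1.

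The summed neutrophil markers did not separate the day 7 groups, at 9339 to 18668 in SE and 15307 to 18403 in HE, and the sums of macrophage, lymphocyte and stromal markers overlapped too. The brightest genes in the neutrophil sum were LTF (11.75 to 13.79 in the day 7 pools) and the phosphatase ALPL (11.60 to 12.01). S100A8 read 6.36, 7.94 and 7.97 in SE and 8.0 and 5.67 in HE, so that HE pool 2 was lowest for this marker as for CXCL8. S100A9 read 4.29, 6.11 and 5.19 in SE and 5.44 and 3.66 in HE, with the same pools at the ends as IL1B. The part of neutrophil content in the day 7 values was not tested.

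Setting day 7 against day 0 within each status compared the lining on the oestrous and the luteal side of ovulation, with the pools treated as unpaired. CXCL5 fell in SE: it averaged 7.31 ± 0.24 on day 7 and 10.45 ± 1.25 on day 0 (SD, n = 3 each), 8.80-fold lower. The difference of -3.14 had a standard error of 0.56 and a 95% interval of -4.39 to -1.88 (limma, adjusted p = 0.00113), with every day 7 pool below every day 0 pool, as for 28.6% of all probe sets. IL1A was also called lower in SE, at 3.26 ± 0.06 on day 7 against 5.01 ± 1.60 on day 0 (-1.75, standard error 0.65, adjusted p = 0.0467). IL1A had passed the filter through day 0 pools alone, so this call is no support for a change. Its day 7 mean was below the filter, the pools overlapped because day 0 SE pool 2 read 3.16, and the call was lost when any pool of the comparison other than that one was left out (adjusted p = 0.0933 to 0.161).

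The other probe sets had lower means on day 7 in SE without passing the test. IL1B differed by -2.11 (adjusted p = 0.188) and -2.29 (adjusted p = 0.0879), CXCR1 by -2.08 (adjusted p = 0.225) and CXCL8 by -1.21 (95% interval -3.74 to 1.32, adjusted p = 0.399). Without day 0 SE pool 2 all but CXCL8 passed: IL1A at -2.67 (adjusted p = 0.000205), IL1B at -3.67 and -3.66 (adjusted p = 0.00831 and 0.00124), CXCR1 at -3.68 (adjusted p = 0.0165) and CXCL5 at -3.35 (adjusted p = 0.00226). CXCL8 then differed by -2.0 (adjusted p = 0.196). The day 0 SE pools left in are those in which IL1A, IL1B and CXCR1 were above the filter, so these passes are no support for a change. Without day 0 SE pool 3 IL1B differed by -0.87 and -1.04 and CXCL8 by -0.55, and without day 0 SE pool 1 CXCR1 differed by -1.14. In all, limma called 2 of the 6 in SE with every pool in, both lower, while 50.1% of all probe sets were called and 24.1% were lower. Since IL1A entered the test through its high day 0 pools, this count only describes the 6.

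In HE none of the 6 passed the test between the days. CXCL5 came nearest, at 7.73 ± 0.26 on day 7 (SD, n = 2) and 9.02 ± 0.79 on day 0 (SD, n = 3), a difference of -1.29 (95% interval -2.70 to 0.11, adjusted p = 0.123), with every day 7 pool below every day 0 pool, as for 36.1% of all probe sets. CXCL8 differed by -1.62 (-4.45 to 1.21, adjusted p = 0.33), a value that rested on day 7 HE pool 2 and was 0.25 without it. CXCR1 differed by -0.86 (adjusted p = 0.673), IL1A by -0.46 (adjusted p = 0.639) and IL1B by -0.25 and -0.11 (adjusted p = 0.902 and 0.947). Here limma called 0 of the 6, and 0 at an unadjusted p under 0.05, against 45% and 52% of all probe sets.

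Whether the day effect differed between SE and HE was tested as an interaction, and limma called 0 of the 6, with 0 at an unadjusted p under 0.05, against 0% and 3.92% of all probe sets. The interaction of CXCL5 was -1.85 (95% interval -3.73 to 0.04, unadjusted p = 0.054, adjusted p = 1). For IL1B it was -1.86 and -2.18, for IL1A -1.29 and for CXCR1 -1.21. That of CXCL8 was 0.41, of the opposite sign, with an interval of -3.39 to 4.20. The fall of CXCL5 in SE is therefore not shown to differ from its course in HE.

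**Figure D3:**
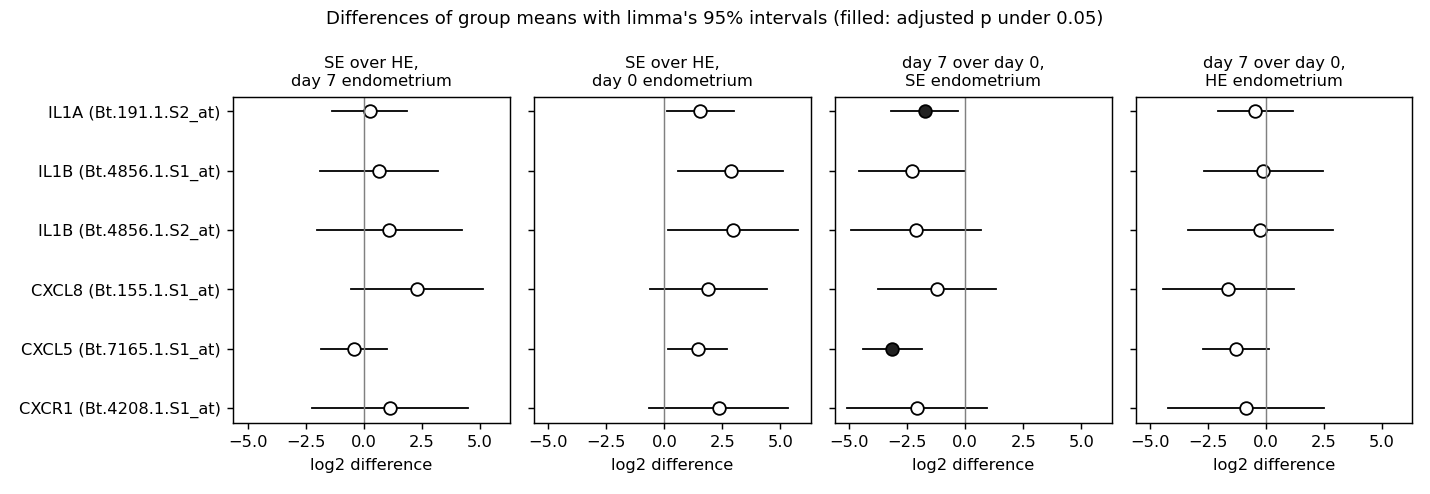
Log2 differences of group means (horizontal axis) with limma's 95% intervals for the 6 probe sets tested in endometrium, 1 panel per comparison; filled points passed the adjusted threshold. CXCL5 and IL1A between the days in SE are the only filled points, and the intervals of the day 0 status differences exclude 0 for IL1A, CXCL5 and both IL1B probe sets without passing after adjustment.

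Around the ligands, the receptor chains of interleukin 1 changed between the days in opposite directions. IL1R1, the signalling receptor, read 6.17, 6.04 and 6.10 in day 7 SE pools, against 7.71, 7.32 and 7.77 in day 0 SE pools. In HE it read 6.0 and 6.42 on day 7, against 8.05, 8.29 and 8.48 on day 0. Every day 7 pool was lower than every day 0 pool, as for 28.6% of all probe sets within SE and 36.1% within HE. The change was -1.50 in SE (adjusted p = 7.49e-05) and -2.06 in HE (adjusted p = 2.61e-05). IL1RAP, the accessory chain, had 3 probe sets, of which 1 passed the filter. The others stayed below it in every endometrium pool (2.83 to 3.26 and 3.24 to 3.63). The one that passed read 8.82, 8.59 and 8.70 in day 7 SE pools, against 6.39, 7.04 and 6.64 in day 0 SE pools. In HE it read 8.88 and 9.06 on day 7, against 6.38, 6.15 and 6.47 on day 0, so that it rose by 2.01 in SE (adjusted p = 1.12e-05) and by 2.63 in HE (adjusted p = 6.04e-06). On day 0 IL1R1 was lower in each SE pool than in each HE pool, a mean difference of -0.67 (adjusted p = 0.566), and IL1RAP differed by 0.36 (adjusted p = 0.683), neither past the test. Of all probe sets 12.8% did not overlap between these groups.

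The antagonist IL1RN was above the filter in all 11 endometrium pools and passed the test in none of the comparisons. It read 6.90, 7.70 and 7.75 in day 7 SE pools and 7.11 and 5.84 in day 7 HE pools. On day 0 it read 8.40, 7.18 and 9.82 in SE and 8.11, 6.22 and 7.35 in HE. Day 0 SE pool 3 was again highest and day 7 HE pool 2 lowest. It differed between SE and HE by 1.24 on day 0 (adjusted p = 0.7) and by 0.98 on day 7 (adjusted p = 1), and between the days by -1.01 in SE (adjusted p = 0.234) and by -0.75 in HE (adjusted p = 0.448). IL1R2, the decoy receptor, stayed below the filter with a highest reading of 3.13.

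Of 17 genes listed for the interleukin 1 family beyond the 2 ligands, 5 were tested, with 1 higher and 2 lower on day 7 in SE and 1 higher and 1 lower in HE, while of all probe sets 26% were higher and 24.1% lower in SE, and 21.8% and 23.2% in HE. The medians of the 5 were -1.01 in SE and -0.60 in HE, against 0.01 and -0.03 over all probe sets. The further one lower in SE was IL18, a relative of IL1B (-1.08, adjusted p = 0.0216), whose call was lost without day 0 SE pool 2 (adjusted p = 0.0689), day 7 SE pool 2 (adjusted p = 0.0785) or day 7 SE pool 3 (adjusted p = 0.0714). Of 11 genes for inflammasome and ligand processing, 4 were tested, with 1 higher and 1 lower in SE and 2 higher and 1 lower in HE, and with medians of 0.47 and 0.86. CASP4, an inflammatory caspase, fell in both, with log2 differences of -2.988 in SE (adjusted p = 3.04e-05) and -3.198 in HE (adjusted p = 5.53e-05). CAPN1, a subunit of the calpain that can trim the IL1A precursor, rose by 1.18 in SE (adjusted p = 0.0011) and by 1.23 in HE (adjusted p = 0.00198). PYCARD, the inflammasome adaptor, differed by 0.83 in SE (adjusted p = 0.113) and rose by 1.93 in HE (adjusted p = 0.00631), a call lost without day 7 HE pool 1 (adjusted p = 0.071), with day 0 means below the filter. CASP1, the enzyme that cuts IL1B, differed by 0.12 in SE and 0.48 in HE, neither past the test.

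**Figure D4:**
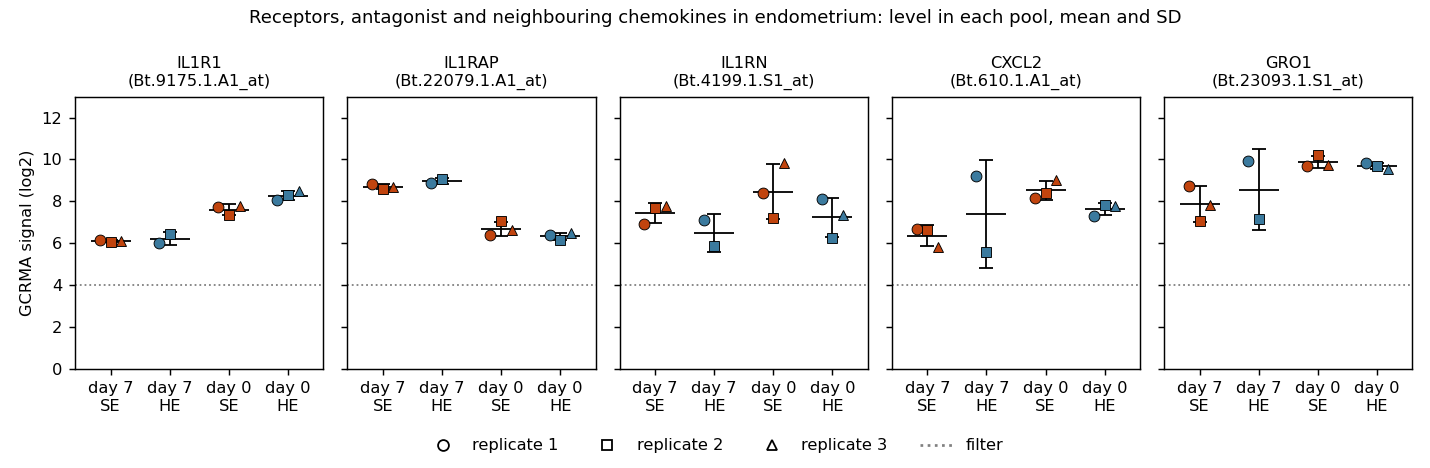
Log2 signal (vertical axis) of IL1R1, IL1RAP, IL1RN, CXCL2 and GRO1 in each endometrium pool, with group means and SD as bars and the filter as a dotted line. IL1R1 lies lower and IL1RAP higher in every day 7 pool than in any day 0 pool, and CXCL2 and GRO1 stand higher in day 7 HE pool 1 than in the other day 7 pools.

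Signalling below the receptor changed in both directions. Of 29 genes listed for signal transduction and NF-kB, 23 were tested: 8 were higher and 10 lower on day 7 in SE, and 7 higher and 10 lower in HE, with medians of -0.31 in SE and -0.35 in HE. Of all probe sets, 26% were higher and 24.1% lower in SE, and 21.8% and 23.2% in HE. TAB1, an adaptor of the kinase TAK1, rose by 1.91 in SE (adjusted p = 4.01e-06) and by 1.75 in HE (adjusted p = 2.09e-05). TNIP1, a brake on NF-kB, rose by 1.94 in SE (adjusted p = 3.18e-05) and by 2.02 in HE (adjusted p = 6.81e-05). The adaptor MYD88 rose by 1.04 in SE and 0.84 in HE, and NFKBIA, which holds NF-kB in the cytoplasm, by 1.40 in SE and 1.62 in HE. IKBKB, the kinase that releases NF-kB, fell by 2.44 in SE (adjusted p = 4.38e-06) and by 2.30 in HE (adjusted p = 1.98e-05). NFKBIZ, a nuclear cofactor for NF-kB targets, fell by 3.21 in SE and 2.68 in HE, CEBPB by 2.52 in SE and 2.83 in HE, and NFKB1 by 1.93 in SE and 1.69 in HE. Between SE and HE none of the 23 passed on either day, with 2 at an unadjusted p under 0.05 on day 0 (7.6% of all probe sets) and 1 on day 7 (3.55%).

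CXCL2 and GRO1, further chemokines of that run of genes, passed the filter. CXCL2 read 6.68, 6.61 and 5.79 in day 7 SE pools and 9.20 and 5.58 in day 7 HE pools, against 8.14, 8.41 and 9.01 in day 0 SE pools and 7.32, 7.84 and 7.76 in day 0 HE pools. It fell by 2.16 in SE (adjusted p = 0.0306), a call lost without any 1 of 5 pools (adjusted p = 0.0505 to 0.0967), and it differed by -0.25 in HE (adjusted p = 0.826). In HE the value turned on day 7 HE pool 1: without it CXCL2 differed by -2.06 (adjusted p = 0.0055).

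GRO1, which RefSeq also lists as CXCL1, had 4 probe sets. The one with the highest mean read 8.75, 7.03 and 7.82 in day 7 SE pools and 9.93 and 7.17 in day 7 HE pools, against 9.70, 10.19 and 9.74 in day 0 SE pools and 9.82, 9.69 and 9.56 in day 0 HE pools. It fell by 2.01 in SE (adjusted p = 0.0203), but not without day 0 SE pool 2 (adjusted p = 0.0569), day 7 SE pool 2 (adjusted p = 0.0783) or day 7 SE pool 3 (adjusted p = 0.0522), and it differed by -1.14 in HE (adjusted p = 0.206). The other 3 fell by 3.07 to 3.38 in SE (adjusted p = 0.000194 to 0.00247) and by 2.12 to 3.12 in HE (adjusted p = 0.00379 to 0.00831). For 2 of them the day 7 SE pools were all below the filter (means 3.16 and 3.37), so the size of those falls is uncertain. In HE, 2 of these 3 calls were lost without day 7 HE pool 2 (adjusted p = 0.0694 and 0.0584). On day 0 CXCL2 was higher in each SE pool than in each HE pool (0.88, adjusted p = 0.804), and the 4 probe sets of GRO1 differed by 0.19 to 0.32 (adjusted p = 0.893 to 0.965). In that comparison 12.8% of all probe sets did not overlap. CXCL3 stayed below the filter with a highest reading of 2.89. Of 17 other neutrophil chemokines and receptors listed, 3 were tested, with 2 lower in SE (median -2.01) and 0 called in HE (median -0.25). Of all probe sets 24.1% were lower in SE, and 45% were called in HE.

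Genes that interleukin 1 is known to induce changed both ways between the days. Of 32 listed, 18 were tested: 4 were higher and 7 lower on day 7 in SE, and 4 higher and 5 lower in HE, with medians of -0.33 in SE and 0.05 in HE. The shares of all probe sets were 26% higher and 24.1% lower in SE, and 21.8% and 23.2% in HE. VCAM1, an adhesion molecule for leukocytes, rose by 4.95 in SE (adjusted p = 5.83e-07) and 7.01 in HE (adjusted p = 2.29e-07), where its day 0 means of 2.20 in SE and 2.07 in HE were below the filter. TNFAIP6, a hyaluronan-binding protein, rose by 3.82 in SE and 3.69 in HE, also with day 0 means below the filter. HMOX1, the haem-degrading enzyme, rose by 2.70 in SE and 2.72 in HE, and SOD2, the mitochondrial superoxide dismutase, by 1.46 in SE and 2.07 in HE. IER3, an early-response gene, fell by 4.85 in SE and 4.98 in HE, and PLAUR, the urokinase receptor, by 4.70 in SE and 3.76 in HE, with day 7 means of 3.65 in SE and 3.16 in HE, below the filter. CCL2, a monocyte chemokine, fell by 2.25 in SE and 2.40 in HE, where its day 7 mean of 3.16 was below the filter, and PTGS2, the inducible prostaglandin synthase, by 2.08 in SE and 2.21 in HE. The HE calls of CCL2 (adjusted p = 0.0553) and PTGS2 (adjusted p = 0.0687) were lost without day 7 HE pool 2 and pool 1.

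Between SE and HE, 0 of these 18 passed on day 0 and 0 on day 7, with 4 and 1 at an unadjusted p under 0.05, against 7.6% and 3.55% of all probe sets. PTGES, which makes prostaglandin E2 (1.69, adjusted p = 0.55), and PLAUR (1.43, adjusted p = 0.473) were higher in each day 0 SE pool than in each HE pool, and 12.8% of all probe sets did not overlap in that comparison. Without SE pool 1 PTGES passed (2.31, adjusted p = 0.00601), but it was below the filter in SE pool 1 and in all 3 HE pools, so the size of its difference is uncertain. On day 7 VCAM1 was lower in each SE pool than in each HE pool, at means of 7.15 in SE and 9.08 in HE (-1.93, adjusted p = 0.166). Between those groups 16.3% of all probe sets did not overlap. IL6 and TNF, other classical targets of this pathway, stayed below the filter, with highest readings of 2.65 and 2.26.

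Of the neutrophil alarmins, S100A12 alone passed between the days. S100A12 fell by 4.28 in SE (adjusted p = 0.00091) and by 2.83 in HE (adjusted p = 0.0189). The HE call was lost without day 7 HE pool 2 (-1.66, adjusted p = 0.197) or day 0 HE pool 1 (-2.48, adjusted p = 0.0599). S100A8 (-2.93, adjusted p = 0.056) and S100A9 (-2.92, adjusted p = 0.0847) had lower means on day 7 in SE without passing, and in HE they differed by -0.52 (adjusted p = 0.769) and -0.72 (adjusted p = 0.716). The summed neutrophil markers, in which LTF weighs heavily, ran from 9339 to 18668 in day 7 SE pools and from 19759 to 38497 in day 0 SE pools, without overlap. In HE they ran from 15307 to 18403 on day 7 and from 13391 to 20833 on day 0, with overlap. The summed epithelial markers were lower on day 7 in every pool, at 29239 to 36175 in SE and 34413 to 39522 in HE, against 59831 to 76201 in SE and 56865 to 65218 in HE on day 0. The part of cell content in the lower day 7 values of CXCL5 and IL1A was not tested.

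Among all named probe sets kept in endometrium, those most like each gene over the 11 arrays were ranked by Pearson's r. Next to IL1A came TGM3, a transglutaminase of epithelia (0.97), and BMP7, a growth factor (0.95). Next to IL1B came TGM3 (0.93), S100A9 (0.93) and IL1RN (0.92). CXCR1 lay nearest to SDS, a serine dehydratase (0.96), and TGM3 (0.95), and CXCL8 to C29H11orf98 (0.90) and SDS (0.88). CXCL5 had other neighbours, among them the collagenase MMP1 (0.92) and UACA (0.92). Of the 5 nearest genes to each, ranking by Spearman kept 2 for IL1A, 4 for IL1B, 3 for CXCL8, 1 for CXCL5 and 4 for CXCR1. After subtracting group means 0 or 1 of the 5 remained for each gene, so other genes stand nearest once the group means are removed.

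In the blastocysts, collected on day 7 from SE and HE cows, CXCL5 and IL1A were above the filter, and the others were not. CXCL5 was at 8.42, 9.31 and 7.52 in pools from SE cows and at 9.54 and 8.39 in pools from HE cows. IL1A (S2) was at 4.11, 4.51 and 5.40 in pools from SE cows and at 3.83 and 4.81 in pools from HE cows, just above the filter in 4 of 5. The SE and HE pools overlapped for both genes, as they did for all but 25% of the probe sets tested. Both IL1B probe sets, CXCL8 and CXCR1 read 2.20 on all 5 arrays, the exact lowest value of the blastocyst arrays, which 24.8% of all probe sets (5957) shared on all 5. The other IL1A probe set and the neutrophil alarmins S100A8, S100A9 and S100A12 also read 2.20 on all 5. On these arrays the GAPDH control read 4.97 to 5.85 higher at its 3' than at its 5' probe set. On the endometrium arrays that difference was 0.026 to 0.578. A reading at the floor therefore does not show that the RNA was absent.

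CXCL5 averaged 8.41 ± 0.90 in blastocysts of SE cows (SD, n = 3) and 8.97 ± 0.81 in those of HE cows (SD, n = 2), a difference of -0.55 (95% interval -2.31 to 1.20, adjusted p = 0.757). IL1A averaged 4.67 ± 0.66 in blastocysts of SE cows and 4.32 ± 0.70 in those of HE cows, a difference of 0.35 (-1.02 to 1.72, adjusted p = 0.798). Both intervals include a log2 difference of 1 in either direction, so a 2-fold change was not detectable with these pools. limma called 0 of the 2, and 0 at an unadjusted p under 0.05, against 0% and 9.34% of all 11014 probe sets tested. The signs of both differences turned without HE pool 1 (0.02 for CXCL5, -0.14 for IL1A).

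**Figure D5:**
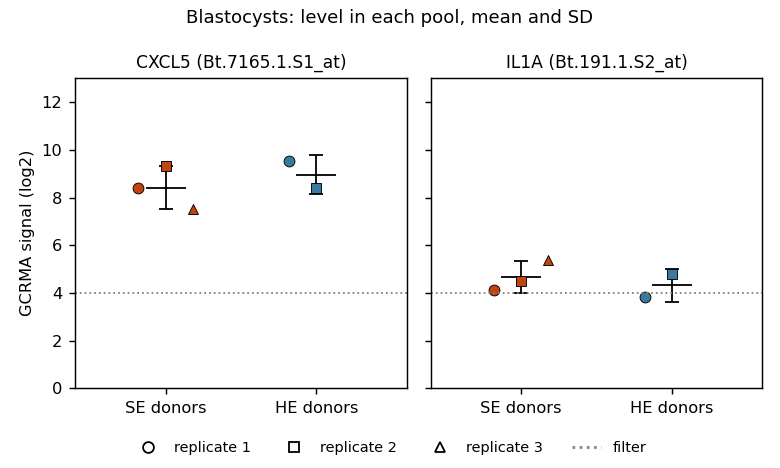
Log2 signal (vertical axis) of CXCL5 and IL1A in each blastocyst pool of SE and HE donors, with group means and SD as bars and the filter as a dotted line. The pools of SE and HE donors overlap for both genes, and IL1A lies close to the filter.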

How the data were processed

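RNA of 11 endometrium and 5 blastocyst pools was measured on Affymetrix bovine arrays. The deposited values are log2 signals per probe set, and GCRMA and limma are named, with no version, role or order, per the submitters' processing notes; other steps, and whether the tissues were normalized together, are not given in the sources used here. On the blastocyst arrays many probe sets sit at 1 common lowest value, unlike on the endometrium arrays, so no level was compared between tissues. Per the labels' protocols, RNA was amplified in 2 rounds from 15 ng. The protocol speaks of 3 pools per group; the HE groups of day 7 and of blastocysts had 2 each in the samples analysed here, numbered 1 and 2 (pools 2 and 3 in the blastocyst titles). Of the 120 pairs of arrays 0 held identical values.

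Tests left out 112 control probe sets. Gene names came from the platform annotation; of the 24016 others, 13292 carried exactly 1 symbol, 86 several and 10638 none. The 7 member probe sets matched RefSeq gene numbers with unchanged symbols. Coordinates and sequences are not given.

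limma 3.58.1 in R 4.3.3 was fitted to group means (empirical Bayes, no trend, two-sided), over the 11 endometrium arrays in 1 fit and the 5 blastocyst arrays in another. A probe set entered where at least 2 arrays of its tissue exceeded a log2 value of 4 (13421 in endometrium, 11014 in blastocysts). Benjamini-Hochberg adjustment ran across every probe set of a fit, with a threshold of 0.05. The script was tested on simulated data. Differences are first minus second group; errors of means are SD. Figures used Python 3.11.15, pandas 2.3.3 and matplotlib 3.10.9.

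The 5 genes and the gene lists were chosen with earlier results of these data known. The naming rule took all members, 16 fixed partners, and of each pathway list at most 4 called genes per direction by smallest p, or at most 2 genes of smallest p where none passed. It also took the 5 genes most like each member by Pearson's r, of which the text prints 2 or 3 for each; 1 gene is not reported here. A gene with several probe sets is given by the one with the highest mean unless others are named. Summed marker levels add 2 to the power of each log2 value. Same-numbered pools were checked for pairing by the correlation of their deviations from group means, and 2 of 15 endometrium pairs exceeded 0.1, so the fit has no block. Alternatives are in the closing section.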

Additional observations from a re-analysis of the deposited data

How the results depend on the processing

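Alternatives were a missing or stricter filter, a further quantile normalization, array weights, an intensity trend, gene means, the replicate number as a block, only the arrays compared, and each pool left out in turn. Of 455 comparisons over 32 results on the 5 genes, 429 kept direction and side of the threshold, 14 reversed, 7 lost a call and 5 gained one. The fall of CXCL5 between the days in SE was called in all 14 (-3.62 to -2.43, adjusted p = 0.000431 to 0.00611). The number of their probe sets called in that comparison, 2, was 1 with no filter, 4 with array weights and 1 with only the arrays compared. With 1 pool left out it ran from 1 to 5, at 5 without day 0 SE pool 2 and at 1 without any other pool of the comparison. IL1A lost its call with no filter (adjusted p = 0.125) and with only the arrays compared (adjusted p = 0.0909), and array weights added both IL1B probe sets (-2.95 and -2.97, adjusted p = 0.0406 and 0.0116).

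Reversals were all of values that had not passed, and most came from leaving out 1 pool. Between the days in HE the differences then ran from -0.39 to 0.32 for IL1B S1 and from -1.59 to 0.40 for CXCR1 (highest without day 0 HE pool 1), from -0.83 to 0.61 for IL1B S2 (above 0 without day 0 HE pool 1 or day 7 HE pool 2) and from -3.48 to 0.25 for CXCL8 (highest without day 7 HE pool 2). The interaction of CXCL8 ran from -1.46 to 2.27, below 0 without any 1 of 4 pools. In blastocysts IL1A ran from -0.14 to 0.85 and CXCL5 from -1.13 to 0.022. SE minus HE on day 7 ran from -2.84 to 0.79 for CXCL2 and from -2.06 to 0.70 for GRO1, above 0 without HE pool 1. Between the days in HE, CXCL2 ran from -2.06 to 1.56 and GRO1 from -2.52 to 0.24, above 0 without day 7 HE pool 2, where CXCL2 passed (adjusted p = 0.0209). The causes were not tested.

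The replicate number as a block changed no call of the 5 genes (2 in SE between the days, 0 in the other comparisons), turned 1 IL1B difference in HE to 0.20 and IL1A in blastocysts to -0.01, and ended the HE call of S100A12 (-2.64, adjusted p = 0.0516). The numbers are not shown to pair the pools: deviations from group means correlated above 0.1 in 2 of 15 same-numbered pairs of endometrium pools. Over all alternatives the count of all probe sets called ran from 3671 to 7134 between the days in SE (6723 as reported), from 3321 to 6395 in HE (6034), from 0 to 11 for status on day 0 (3) and from 0 to 10 on day 7 (0), and was 0 in blastocysts. Without day 0 SE pool 2 the interleukin 1 family had 2 higher and 1 lower between the days in SE, and the other chemokines 0 lower.

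Signal over background limits IL1A, IL1B and CXCR1, which passed the filter through 2 to 4 of 11 endometrium arrays. Their differences between groups below the filter have no reliable size. Groups of 2 or 3 pools left intervals of several log2 units, so values that did not pass may still differ.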

Other observations

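In blastocysts the partners of interleukin 1 were measured where IL1B itself was at the floor. Of the 17 genes listed for the family, 5 were tested, and 0 passed, with 2 at an unadjusted p under 0.05, against 9.34% of all probe sets tested. IL1RAP, the accessory receptor chain, passed the filter on 1 of its 3 probe sets, and the others read 2.20 in every pool. The one that passed averaged 3.45 in embryos of SE cows and 4.84 in those of HE cows. It was lower in each of the 3 SE pools than in each HE pool (-1.38, standard error 0.17, adjusted p = 0.271), and its SE mean lay below the filter. In the same comparison 25% of all probe sets did not overlap. The GAPDH control also differed between these groups. Its 3' minus 5' difference was 5.11 and 4.97 in HE pools and 5.73, 5.47 and 5.85 in SE pools. That of the EF1A control was also higher in each SE pool, at 2.36, 2.07 and 2.18 against 1.41 and 2.03 in HE. The DapX control gave 6.10, 6.79 and 6.82 in SE and 4.95 and 4.63 in HE, and LysX and ThrX separated the groups in the same direction. Other controls, among them actin, overlapped. The part of these control differences in the values of the genes was not tested. The antagonist IL1RN was above the filter in every pool, at 8.49 to 9.69 in SE and 9.04 to 9.09 in HE, and differed by 0.17 (adjusted p = 0.893). IL18 differed by -0.56 (adjusted p = 0.403).

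Among the genes that interleukin 1 is known to induce, 8 of 32 were tested in blastocysts, and 0 passed, with 2 at an unadjusted p under 0.05, again beside 9.34% of all probe sets. PTGS2, the inducible prostaglandin synthase, averaged 11.69 in SE and 10.51 in HE, higher in each SE pool than in each HE pool (1.18, adjusted p = 0.432). IL6, an inflammatory cytokine, averaged 7.71 in SE and 9.51 in HE, lower in each SE pool (-1.80, adjusted p = 0.476). Of all probe sets 25% did not overlap. The part of the control differences given above was not tested for PTGS2 and IL6 either. In the signalling list 20 of 29 were tested, with 0 called and 1 at an unadjusted p under 0.05 (9.34% of all). IRAK4, the kinase that MYD88 recruits, differed by -0.93 (adjusted p = 0.403) and RELA, a subunit of NF-kB, by 0.60 (adjusted p = 0.542).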
